A study of Oryza sativa with 8 samples.

Results

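Aquaporins are the membrane channels through which water, and in some subfamilies small uncharged solutes, crosses plant cell membranes. The 30 loci described here, of 55986 listed in the count files, were picked as a gene family, by their identifiers in the Michigan State University rice annotation (release 7), with no threshold on their values. They comprise 11 plasma membrane intrinsic proteins (PIPs, 3 of the PIP1 and 8 of the PIP2 group), 10 tonoplast intrinsic proteins (TIPs), 8 nodulin 26-like intrinsic proteins (NIPs) and the small basic intrinsic protein SIP2;1 (LOC_Os03g20410). Names are given only for Lsi1 (LOC_Os02g51110), OsNIP1-3 (LOC_Os05g11560) and SIP2;1, because no source used here pairs the other identifiers with names.

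In plants, PIP2 proteins generally act as efficient water channels of the plasma membrane, whereas many PIP1 proteins need a PIP2 partner to reach it. TIPs serve the vacuolar membrane and let a cell adjust its volume as its surroundings change. NIPs carry small solutes such as silicic acid, boric acid and glycerol, and Lsi1 is the silicon influx channel of the rice root, known from the outward-facing side of exodermis and endodermis cells. In Arabidopsis, SIPs reside in the endoplasmic reticulum.

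RNA was compared between 4 samples of intact roots and 4 samples of digested roots, the latter treated with a protoplasting cocktail and holding freed protoplasts together with pieces that had not come apart. All samples came from Xkitaake seedlings, the Kitaake line carrying an XA21 transgene under a maize ubiquitin promoter and labelled wild type here, grown on nutrient gel at 28 °C for 1 to 3 days after germination. The study used this comparison to find genes that respond to protoplasting. QuantSeq libraries were made, in which reads start near the 3′ end of transcripts, so that a transcript gives about 1 tag whatever its length and levels can be set side by side between genes on the tag scale.

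Intact libraries held 2333236 to 3595349 counts on genes and digested libraries 115006 to 471019. One count was worth 0.249 to 0.407 CPM (counts relative to the TMM-scaled total of the library) in intact and 2.46 to 9.29 CPM in digested libraries. Aquaporins supplied 35379 to 54183 counts per intact library but 581 to 2160 per digested library, so the digested values carry the larger counting error. The labels do not say whether the samples of a group came from separate cultures, and p-values then measure the spread between these samples, which may be technical. The study's curated list holds 58 root cell type markers and none of the 30 loci, and 58 of these markers had a count in intact roots and 52 in digested roots. Of the 47 markers tested, 28 were lower and 1 was higher in digested roots, beside 18.5% lower and 20.0% higher of all genes tested. The summed level of the epidermis, trichoblast, sclerenchyma, cortex, vascular, xylem and root cap markers was lower in every digested library than in any intact one. The epidermis list holds 1 gene, at 0 to 19.7 CPM in digested libraries, and the sclerenchyma markers summed to 8.77 to 22.7 CPM there, so both rest on few counts. Vascular markers, for example, summed to 491 to 762 CPM in intact libraries but 114 to 295 CPM in digested ones (4 of 4 tested lower), and xylem markers to 540 to 787 CPM but 193 to 316 CPM (6 of 8 tested lower). The sums of the atrichoblast, exodermis, endodermis, phloem and meristem markers overlapped between the groups. Of the 4 phloem markers 0 were tested, and they summed to 0 to 12.3 CPM in digested libraries. The exodermis markers summed to 21.9 to 34.4 CPM there, so the overlap of both lists rests on few counts. The part of these marker changes in the aquaporin values was not tested. In bulk samples such as these, fewer cells of a type and less RNA per cell cannot be told apart.

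Most aquaporins with enough tags to test were lower after digestion, and 2 were higher. Summed over the family, the level was 13052, 14390, 13532 and 13508 CPM in intact replicates 1 to 4 and 3441, 5309, 5399 and 5142 CPM in digested replicates 1 to 4. The group means were 13620 ± 559 and 4823 ± 927 CPM (SD, n = 4 each), a 2.82-fold lower level in digested roots, and the groups did not overlap. Before any scaling between libraries, aquaporins made up 1.43% to 1.52% of the counts on genes in intact and 0.299% to 0.505% in digested libraries.

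By gene, 26 of the 30 loci had at least 1 count and 22 had enough counts to be tested by edgeR's quasi-likelihood test across all genes. At an adjusted p under 0.05, 15 of these 22 aquaporins were lower in digested roots, or 68.2%, beside a background of 18.5% of the 13104 tested genes. Only LOC_Os01g74450, a TIP, and OsNIP1-3 were higher, beside a background of 20.0%. Calls in either direction numbered 17 of 22, beside 38.5% of tested genes, and the remaining 5 tested members were not called. The median log2 fold change (digested over intact) was -1.46 over the 22 tested aquaporins and -0.06 over all tested genes. A log2 fold change of -2 or below was reached by 6 called members, against 7.80% of all tested genes, and one of 2 or above by OsNIP1-3 alone among members, against 9.06%. The libraries of the 2 groups did not overlap for 18 tested aquaporins, against 37.2% of tested genes.

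**Figure D1:**
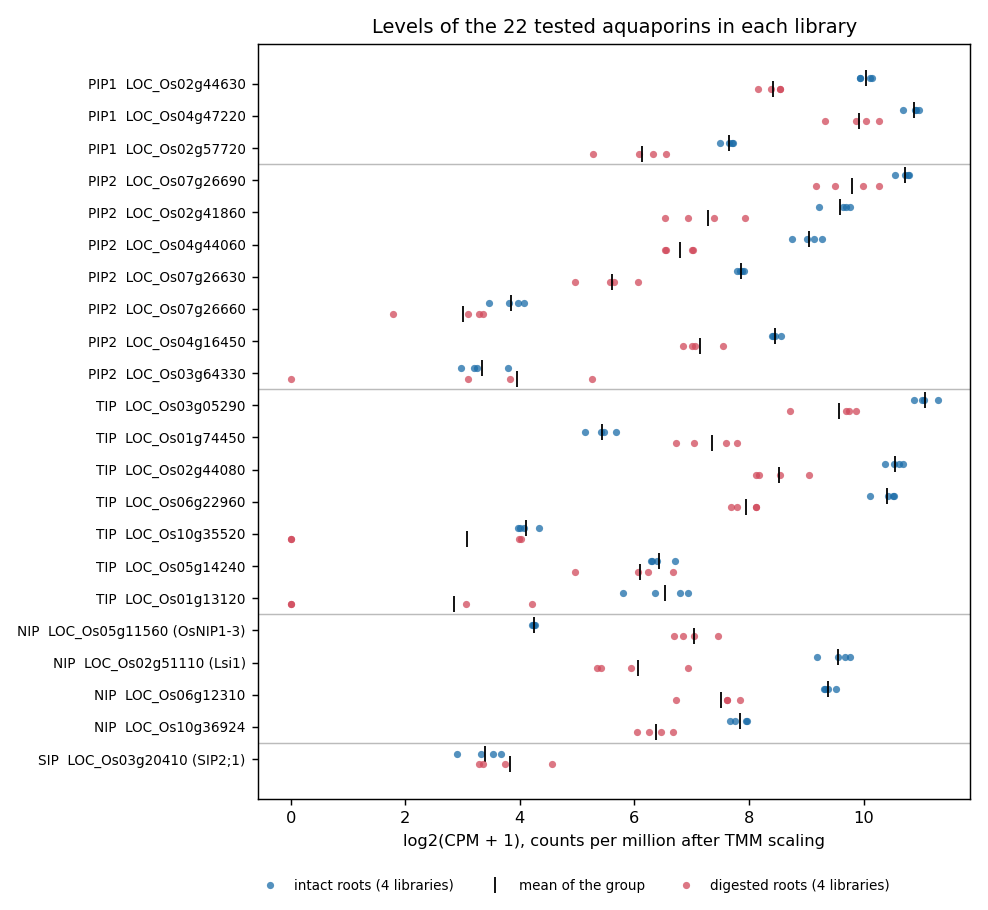
Level of each of the 22 tested aquaporins in each library, as log2(CPM + 1), with 4 points per group and a black tick at the log2 of the group mean plus 1. Digested libraries lie to the left of intact libraries for most members, and to the right for LOC_Os01g74450 and OsNIP1-3.

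**Figure D2:**
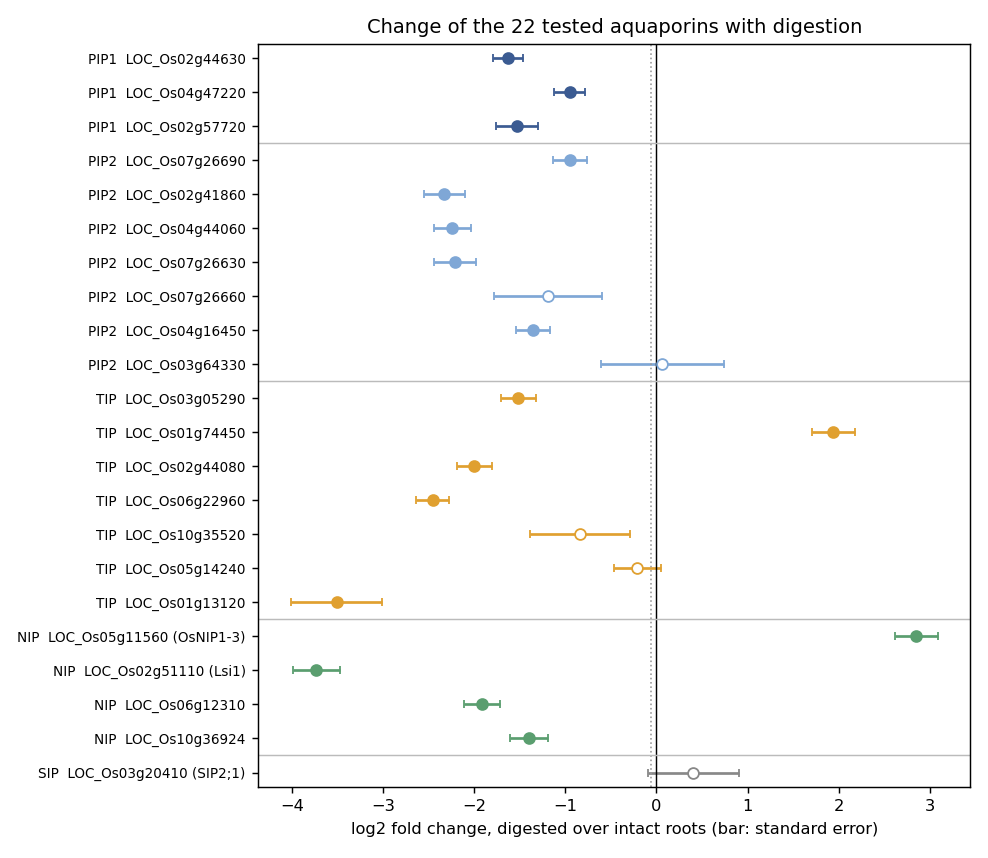
Log2 fold change (digested over intact roots) of the 22 tested aquaporins with its standard error, coloured by subfamily, filled where the adjusted p of edgeR's test was under 0.05 and open otherwise; the dotted line is the median of all tested genes. Values run from -3.73 for Lsi1 to 2.85 for OsNIP1-3, and 15 filled points lie left of 0.

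All 3 PIP1 members fell, and so did 5 of the 7 tested PIP2 members, while no PIP rose. The summed PIP1 level went from 3123 ± 216 to 1373 ± 276 CPM and the summed PIP2 level from 3583 ± 204 to 1361 ± 335 CPM (SD, n = 4 each). Median log2 fold changes were -1.53 for PIP1 and -1.35 for tested PIP2 members. The fall was uneven, with the most abundant locus of each group falling least among its called members and 3 PIP2 loci falling past 4-fold.

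LOC_Os04g47220, the most abundant PIP1 locus, had 1644, 2000, 1928 and 1917 CPM in intact replicates and 640.0, 1234, 929 and 1053 CPM in digested replicates. Its log2 fold change was -0.95 (SE 0.17, edgeR adjusted p = 6.18e-05), and even the highest digested library stayed below the lowest intact one. LOC_Os02g44630 went from 979, 1108, 981 and 1138 CPM to 285, 371, 372 and 333 CPM (log2 fold change -1.63, standard error or SE 0.17, edgeR adjusted p = 4.18e-09). The 2 groups were each tight for this locus, and the spread of the digested libraries (12.1% of their mean) was no larger than counting alone gives (13.2%). LOC_Os02g57720, the least abundant PIP1 locus, stood at 210, 207, 179 and 199 CPM in intact and at 78.9, 66.4, 92.9 and 37.9 CPM in digested libraries. It fell by 1.53 on the log2 scale (SE 0.23, edgeR adjusted p = 3.60e-06), with digested replicate 4 lowest.

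Among the PIP2 genes, whose products include the main water channels of the plasma membrane, LOC_Os07g26690 was the most abundant. It had 1771, 1684, 1757 and 1504 CPM in intact replicates and 574, 728, 1227 and 1015 CPM in digested replicates, a log2 fold change of -0.95 (SE 0.19, edgeR adjusted p = 0.000151). Its digested libraries differed by more than counting gives, with a spread of 32.9% of the mean against 8.18%, and replicates 3 and 4 kept the higher levels. LOC_Os02g41860 had 593, 866, 827 and 800 CPM in intact libraries and 92.1, 167, 121 and 242 CPM in digested libraries, a 5.02-fold fall (log2 fold change -2.33, SE 0.22, edgeR adjusted p = 1.77e-09). Intact replicate 1 was the lowest of its group here, yet well above the highest digested value.

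LOC_Os04g44060 behaved much like it, at 430, 615, 559 and 517 CPM in intact and 92.1, 128, 92.9 and 129 CPM in digested libraries (log2 fold change -2.24, SE 0.20, edgeR adjusted p = 4.00e-10). LOC_Os07g26630 held steady across intact roots, at 228, 235, 240.0 and 221 CPM, and stood at 65.8, 49.2, 46.5 and 30.3 CPM in digested roots (log2 fold change -2.21, SE 0.23, edgeR adjusted p = 8.73e-09). LOC_Os04g16450 fell less, from 339, 336, 348 and 374 CPM to 127, 133, 186 and 114 CPM (log2 fold change -1.35, SE 0.19, edgeR adjusted p = 1.43e-06). None of these PIP2 loci had a digested library within the intact range.

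LOC_Os07g26690 and LOC_Os07g26630, which have neighbouring identifiers, did not keep their proportion. For each count of the second, the first had 6.79 to 7.77 in intact libraries and 8.73 to 33.5 in digested libraries. The ratio was higher in every digested library than in any intact one, although the 44 counts of LOC_Os07g26630 over the 4 digested libraries leave it imprecise. Reads matching several places were not counted, and the sequences of such neighbours were not compared here, so a split of reads between close copies is uncertain.

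The low PIP2 loci gave little. LOC_Os07g26660 had 160 counts over the intact and 5 over the digested libraries, with groups that did not overlap but no call (log2 fold change -1.19, SE 0.59, edgeR adjusted p = 0.118). LOC_Os03g64330 had 109 and 8 counts and overlapping groups (log2 fold change 0.07, SE 0.68, edgeR adjusted p = 0.954), and the sign of its difference turned under other scalings. LOC_Os09g36930 had no count in any library.

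Among the tonoplast genes, 4 fell and a single one rose. In intact roots the TIPs held more of the family's tags than PIP1 or PIP2 taken singly, but fewer than the PIPs together. Summed over the 10 TIPs, the level went from 5239 ± 145 to 1615 ± 367 CPM (SD, n = 4 each), 3.24-fold lower. Over the 7 TIPs tested the median log2 fold change was -1.52.

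LOC_Os03g05290 had the highest mean level of the family in intact roots, at 2520, 2118, 1873 and 2086 CPM, against 421, 826, 939 and 856 CPM in digested roots. Its log2 fold change of -1.52 (SE 0.19, edgeR adjusted p = 3.96e-07) was close to the family's median, and digested replicate 1 was well below the other 3. LOC_Os02g44080 had 1323, 1564, 1645 and 1478 CPM in intact and 276, 531, 372 and 288 CPM in digested libraries, a 4.00-fold fall (log2 fold change -1.999, SE 0.19, edgeR adjusted p = 1.07e-09), which lay just short of the limit of -2 used above. LOC_Os06g22960 fell further, from 1102, 1474, 1460 and 1368 CPM to 219, 278, 279 and 204 CPM (log2 fold change -2.45, SE 0.18, edgeR adjusted p = 4.93e-12). Its digested libraries varied by 15.8% of their mean, close to the 15.6% of counting error. These 3 genes together accounted for most TIP tags in both groups.

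LOC_Os01g13120, a TIP that the study also lists among the trichoblast (root hair cell) markers derived from its single-cell atlas, almost disappeared. It had 54.7, 121, 110 and 81.0 CPM in intact libraries (152, 297, 306 and 325 counts) and 17.5, 7.37, 0 and 0 CPM in digested libraries (4, 3, 0 and 0 counts). The log2 fold change was -3.51 (SE 0.50, edgeR adjusted p = 4.19e-06), and the ratio of pooled counts gave -3.49 with a 95% exact binomial interval of -4.80 to -2.44, which covers counting error only. Digested replicates 3 and 4, the smallest libraries, held no tag of it, but replicates 1 and 2 were also far below every intact library in CPM. As a share of aquaporin counts the groups overlapped. Digested replicate 1, at 0.510%, lay within the intact range of 0.419% to 0.839%, and digested replicate 2 was at 0.139%. Without digested replicate 1, which held 4 of the 7 digested tags, the log2 fold change was -4.37. The 11 trichoblast markers of the curated list summed to 496 to 659 CPM in intact and 83.3 to 195 CPM in digested libraries, with 7 of 8 tested lower and 3 at 0 in digested roots (LOC_Os01g11750, LOC_Os03g04210 and LOC_Os06g08500). Their part in the fall of LOC_Os01g13120 was not tested.

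The rising TIP, LOC_Os01g74450, was a minor gene of intact roots, at 34.2, 50.4, 41.6 and 43.4 CPM. Digested libraries held 105, 192, 130.1 and 220 CPM, a 3.84-fold rise (log2 fold change 1.94, SE 0.24, edgeR adjusted p = 1.09e-07), and the lowest of them was above every intact library. For every 100 tags of the leading TIP, LOC_Os03g05290, it gave 1.36 to 2.38 in intact libraries but 13.9 to 25.7 in digested ones. It moved from rank 17 to rank 8 among the 30 members.

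Other TIPs showed no call. LOC_Os05g14240 was the most abundant of these, with 77.0 to 104 CPM in intact and 30.3 to 101 CPM in digested libraries (log2 fold change -0.21, SE 0.26, edgeR adjusted p = 0.564), so its groups overlapped. LOC_Os10g35520 had 14.7 to 19.1 CPM in intact libraries and 0 to 15.1 CPM in digested libraries, from 8 counts (log2 fold change -0.84, SE 0.55, edgeR adjusted p = 0.247), and its log2 fold change was -2.05 without digested replicate 2. LOC_Os04g44570 and LOC_Os04g46490 had 2 and 3 counts in intact roots only, and LOC_Os01g13130 had none at all.

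The NIPs held both extremes of the family: Lsi1 fell the most and OsNIP1-3 rose the most of all tested aquaporins. The summed NIP level went from 1666 ± 171 to 460 ± 78.8 CPM (SD, n = 4 each), 3.62-fold lower. All 4 tested NIPs changed, 3 down and 1 up, and their groups did not overlap.

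Lsi1 had 817, 864, 579 and 747 CPM in intact libraries and 39.5, 41.8, 121 and 60.6 CPM in digested libraries. This was a 13.3-fold fall (log2 fold change -3.73, SE 0.26, edgeR adjusted p = 2.20e-12), from 9005 counts over the intact to 47 over the digested libraries. Digested replicate 3 held the highest digested level and intact replicate 3 the lowest intact one, and these were still far apart. LOC_Os06g12310, a NIP of similar abundance in intact roots, went from 664, 728, 636 and 644 CPM to 105, 194, 195 and 227 CPM (log2 fold change -1.92, SE 0.20, edgeR adjusted p = 5.69e-09). Per 100 tags of LOC_Os06g12310, Lsi1 gave 91.0 to 123 in intact libraries but 21.5 to 61.9 in digested ones, so the silicon channel fell further than this NIP in every digested library.

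Markers of the 2 cell layers in which Lsi1 is known to act did not separate the groups when summed. The exodermis markers summed to 30.9 to 37.8 CPM in intact and 21.9 to 34.4 CPM in digested libraries, with 1 of 2 tested lower and 1 of the 4 listed at 0 in digested roots (LOC_Os06g17260). The endodermis markers summed to 155 to 274 CPM and 90.9 to 305 CPM, with 1 of 5 tested lower and none at 0. Among the endodermis markers, LOC_Os03g24930 was lower (log2 fold change -2.92, edgeR adjusted p = 0.0204), and the rest were not called (-0.75 to 0.11). With 1 count worth 2.46 to 9.29 CPM in digested libraries, the exodermis sums rest on few counts, and their overlap decides little. Of the 2 tested exodermis markers, LOC_Os04g37980 was lower (log2 fold change -3.32) and LOC_Os03g02460 was not called (0.46). The markers' part in the fall of Lsi1 was not tested.

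OsNIP1-3, which the study lists among water stress genes of the exodermis, was low in intact roots, at 18.0, 18.3, 17.6 and 17.7 CPM. These values differed by 1.80% of their mean, less than the 13.9% that counting gives, so their closeness is no measure of steadiness. Digested libraries held 114, 130.3, 102 and 174 CPM, a 7.23-fold rise (log2 fold change 2.85, SE 0.24, edgeR adjusted p = 6.76e-11), with the lowest of them well above the highest intact value. Per 100 tags of Lsi1, OsNIP1-3 gave 2.12 to 3.04 in intact libraries but 84.6 to 312 in digested ones, so that in 3 of the 4 digested libraries it outnumbered Lsi1.

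The water stress list that holds OsNIP1-3 names 14 other genes, of which 7 could be tested. Of these, 6 were higher and 1 was lower in digested roots, beside the background of 20.0% higher and 18.5% lower. OsRAB16C, OsRAB16A, OsRAB16b, WSI18 and LOC_Os10g21790 had only 2 to 9 counts over the intact libraries. Such genes could pass the filter only through their digested counts, so these shares are no like-for-like comparison. The median log2 fold change of the 7 genes, 7.17, was that of OsRAB16b, from 2 intact and 32 digested counts. The riser WSI18 (LOC_Os01g50910), a late embryogenesis abundant protein gene, went from 0.715 ± 0.541 to 214 ± 48.1 CPM (SD, n = 4 each). The 1 that fell was OsASR5 (LOC_Os11g06720), from 2055 ± 284 to 1174 ± 196 CPM (SD, n = 4 each, log2 fold change -0.81, SE 0.16, edgeR adjusted p = 0.00019). OsLOX (LOC_Os10g21670), with 151 counts over the intact and 4 over the digested libraries (means of 12.3 and 5.93 CPM), was not tested. OsNIP1-3 was one of 7 risers among 8 tested genes of this list, but the filter fixed the direction of those with few intact counts, so this tally carries little weight. The median log2 fold change of the 8 was 6.45, but it rests on genes nearly absent from intact roots. OsNIP1-3 had 215 intact counts, so the size of its rise cannot be ranked against that median. The study uses this list in its single-cell and bulk RNA work on soil compaction, and the OsRAB16 genes in it have close relatives whose reads may be shared.

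LOC_Os10g36924 completed the NIPs with a call, at 203, 249, 214 and 246 CPM in intact and 87.7, 101, 65.1 and 75.7 CPM in digested libraries (log2 fold change -1.40, SE 0.21, edgeR adjusted p = 4.11e-06). Its digested libraries differed by 18.7% of their mean, less than the 26.8% that counting gives. LOC_Os02g13870 had 2 counts in each group, LOC_Os08g05580 had 2 in intact roots only, and LOC_Os01g02190 and LOC_Os08g05590 had none. A count of 0 over a group allows up to 0.249 CPM for intact roots but up to 3.43 CPM for digested roots (3 counts over the 4 libraries), so a silent locus is bounded more tightly in intact roots.

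**Figure D3:**
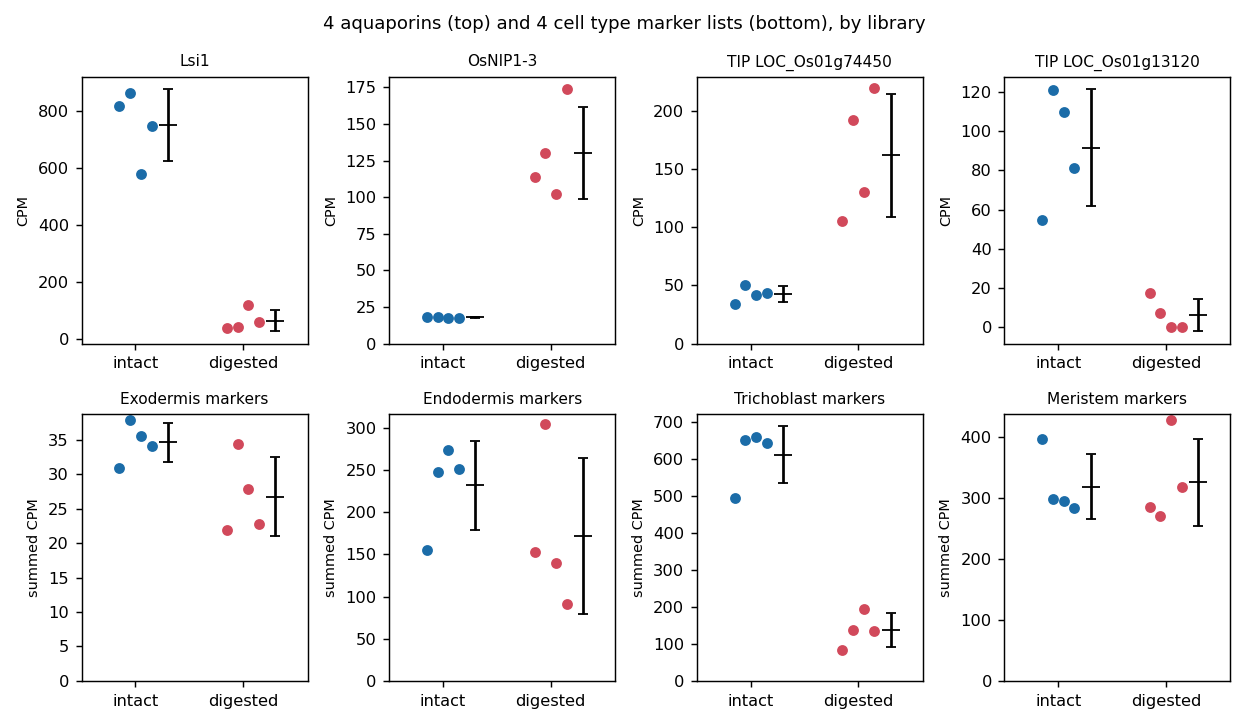
CPM of 4 aquaporins (top) and summed CPM of 4 marker lists (bottom) in each library, with the mean and SD of each group beside the points (n = 4 each). Lsi1 and LOC_Os01g13120 were lower and OsNIP1-3 and LOC_Os01g74450 higher in all digested libraries, and of the 4 lists drawn, which are not the only ones that moved, the trichoblast sum was lower and the other sums overlapped between the groups.

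Like LOC_Os07g26660, LOC_Os03g64330 and LOC_Os10g35520, SIP2;1 was low and without a call. It had 6.47 to 11.7 CPM in intact libraries and 8.77 to 22.7 CPM in digested libraries, the latter from 11 counts in all, and the groups overlapped. Its log2 fold change was 0.41 (SE 0.50, edgeR adjusted p = 0.564), which at this depth leaves both a fall and a rise possible.

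Composition within the family can be read without any scaling between libraries, since it divides each member's counts by the aquaporin counts of the same library. PIPs made up 47.6% to 50.6% of aquaporin counts in intact libraries, against 54.2% to 57.7% after digestion, and TIPs 37.9% to 39.3%, against 31.4% to 36.7%. NIPs held 10.7% to 13.0% of the family in intact libraries, against 8.84% to 10.5% after digestion. The NIP gap was small beside the spread within the groups (SD 1.08 and 0.83). Mean shares fell for Lsi1 (5.52% to 1.34%) and LOC_Os06g12310 (4.90% to 3.69%) but rose for OsNIP1-3 (0.131% to 2.76%) and LOC_Os10g36924 (1.67% to 1.78%). The PIP, TIP and NIP ranges did not overlap, while those of PIP2 did (25.4% to 27.8% against 22.7% to 31.8%). The PIP1 share was higher in every digested library (25.8% to 31.5%) than in any intact one (21.7% to 24.1%). The PIPs thus held a larger part of a smaller total. LOC_Os04g47220 and LOC_Os07g26690 had the largest gains in mean share, while LOC_Os02g44630, LOC_Os02g41860, LOC_Os04g44060 and LOC_Os07g26630 had lower mean shares after digestion. Of these lower shares, only that of LOC_Os04g44060 did not overlap between the groups (3.29% to 4.27% against 1.72% to 2.68%).

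**Figure D4:**
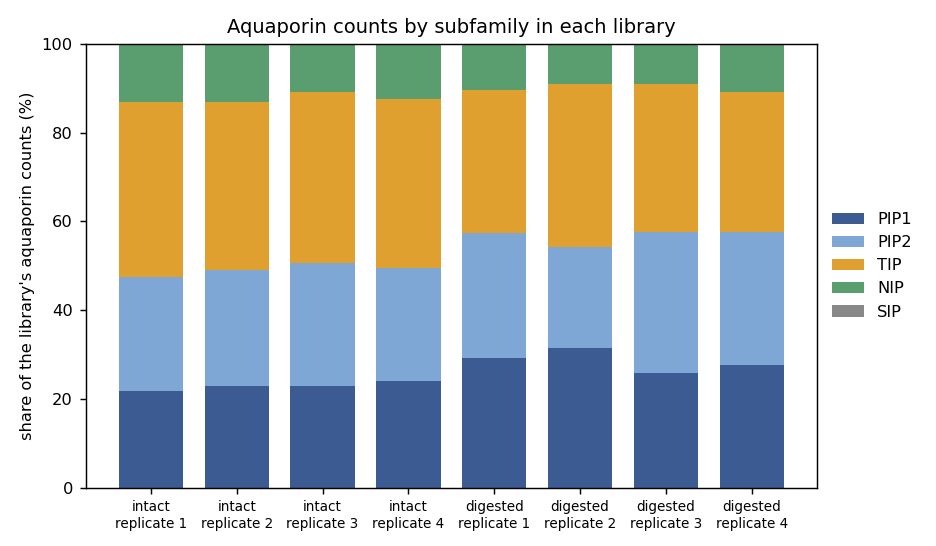
Share of each library's aquaporin counts (in percent, stacked to 100) that fell on PIP1, PIP2, TIP, NIP and SIP members. In the 4 digested libraries the PIP1 share was 25.8% to 31.5%, above the 21.7% to 24.1% of the 4 intact libraries, and the TIP share was lower; the SIP share was under 0.5% throughout.

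The same few genes led both groups. In intact roots the order by mean level was LOC_Os03g05290, LOC_Os04g47220, LOC_Os07g26690, LOC_Os02g44080 and LOC_Os06g22960, and the ranges of neighbours overlapped here too, with LOC_Os04g47220 above LOC_Os03g05290 in replicate 3. In digested roots it was LOC_Os04g47220, LOC_Os07g26690, LOC_Os03g05290, LOC_Os02g44080 and LOC_Os02g44630. Ranges of neighbours in the digested order overlapped (LOC_Os04g47220 at 640.0 to 1234 CPM, LOC_Os07g26690 at 574 to 1227 CPM and LOC_Os03g05290 at 421 to 939 CPM), so the order of these 3 was not resolved there either.

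Shares of single members moved in both directions. LOC_Os04g47220 went from 13.7% ± 0.77 to 19.9% ± 2.61 of aquaporin counts and LOC_Os07g26690 from 12.3% ± 1.12 to 18.2% ± 3.89 (SD, n = 4 each), both falling less than the family. Lsi1 went from 5.52% ± 0.88 to 1.34% ± 0.63 and dropped from rank 8 to rank 16. OsNIP1-3 went from 0.131% ± 0.0045 to 2.76% ± 0.72 and LOC_Os01g74450 from 0.310% ± 0.037 to 3.34% ± 0.79 (SD, n = 4 each). OsNIP1-3 climbed from rank 18 to rank 11.

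Replicate spread was wider after digestion. Over the 22 tested members the median coefficient of variation was 12.4% in intact and 32.4% in digested libraries, where counting error alone would give medians of 3.50% and 22.3%. The observed spread was above the counting value for 19 members in intact and 16 in digested roots. Of the 15 members that fell, 9 had their lowest digested level in replicate 1, which also had the lowest summed level but was not among the 2 smallest libraries.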

How the data were processed

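Each library came as 1 file of raw counts that the authors deposited, whole numbers for each gene with no scaling. Reads were aligned to the Michigan State University rice genome, release 7, and counted with HTSeq, per the labels, and the libraries carried unique molecular identifiers. The submitters' processing notes also name STAR, UMI-tools and edgeR, with no versions or roles. The 5 HTSeq summary lines were kept out of library sizes. Reads at several places (3.93% to 5.36% of intact and 13.0% to 24.3% of digested lines' sums) and reads on no gene (13.0% to 13.9% and 13.4% to 14.9%) were among them, so close copies are uncertain.

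All genes were fitted with edgeR 4.0.16 under R 4.3.3 (genes kept by filterByExpr, TMM factors, robust glmQLFit, glmQLFTest, prior count 0.125, Benjamini-Hochberg over the 13104 tested genes). The standard error (SE) was obtained by dividing the size of a log2 fold change by the root of its F value. CPM used TMM-scaled totals. Counting intervals and the floor of 3 counts cover counting error only. The procedure was tested on simulated data. All members were named, with every library's value for those with an adjusted p under 0.05 or a mean of at least 100 CPM. The members were taken as a family with no threshold on their values, but this family, the marker lists and the water stress list were chosen with earlier results of these data known. Alternatives were other scalings, other filters, DESeq2 1.42.0, limma-voom (limma 3.58.1), a replicate block, leaving out each library and thinning the intact counts. No identifier matched the reference name table, so no coordinates or sequences are printed. Every pair of replicates differed beyond sampling noise, with 1.72 to 7.65 units of chi-square for each degree of freedom.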

Additional observations from a re-analysis of the deposited data

Results flagged for a closer look

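The summed aquaporin level of digested replicate 1, 3441 CPM, stood apart from the other digested libraries, at 5142 to 5399 CPM, by more than Dixon's 95% limit for 4 samples. It was the 1 group past that limit of 54 checked, where chance gives about 1 in 20, or 2.7. The family's level was lower in digested roots with and without this library.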

How the results depend on the processing

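All 17 calls kept their direction and stayed past the threshold under each of the 17 alternatives. LOC_Os07g26660 was called as well with total counts (log2 fold change -1.50, adjusted p = 0.0362 by edgeR) and upper-quartile factors (-1.47, adjusted p = 0.0423 by edgeR), which made 16 lower members. The median shift of log2 fold changes over all tested genes was -0.31 and -0.27 with these scalings, and -0.14 with RLE factors. The summed level, -1.50 on the log2 scale, was -1.79, -1.73 and -1.63 with these scalings in turn, and -1.72 to -1.49 with 1 library left out. The summed NIP level went from -1.86 to -2.15 with total counts, a shift larger than the SD of its log2 level over the digested libraries. LOC_Os03g64330, never called, turned to -0.24 with total counts, -0.21 with upper-quartile factors, -0.076 with RLE factors, -0.052 without the filter, -0.0025 with a 1 CPM filter, -0.054 with limma-voom and -0.85 to 0.76 with 1 library left out. The cause was not tested. Same-numbered libraries did not deviate together (correlations -0.30, 0.06, -0.11 and -0.06). Counting noise at the digested depth could hide a shared origin, so whether the numbers pair the libraries stays unknown. The replicate block gave the same 15 lower and 2 higher members. Only 18 members could be tested without an intact library or with intact counts thinned to the digested depth. With 581 to 2160 aquaporin counts per digested library, small changes of the rare members were not detectable.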
